A study of Mus musculus with 16 samples.

Results

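Cytosolic ribosomal protein genes encode the proteins of the ribosome that works outside the mitochondria. They were taken as the protein-coding genes of the mouse annotation whose symbols start with Rpl or Rps followed by a number, together with Rplp0, Rplp1, Rplp2 and Rpsa, without the Rps6k kinases, Rps19bp1 and Rpl10l. The rule gave 90 genes, and all 90 were among the 54453 genes of the expression table. They comprise 77 core genes (43 of the large subunit, 31 of the small subunit and the 3 stalk genes), 7 paralogues (Rpl3l, Rpl7l1, Rpl22l1, Rpl36al, Rpl39l, Rps27l and Rps27rt) and 6 genes that carry a "-ps" symbol, the usual mark of a pseudogene, but are annotated as protein-coding.

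Expression was measured by total RNA sequencing, after depletion of ribosomal RNA, in 16 immortalised lines of mouse embryonic fibroblasts (MEFs), with 1 library per line. The parental lines MEF-1, from a male, and MEF-2, from a female, were derived from sibling C57BL/6J embryos at embryonic day 13.5 and immortalised by passaging through crisis, without a transgene. From each parental line, 7 clonal lines were grown, each from its own sorted cell, so that a clonal line is 1 clone and a parental line is a mixed population. No line received a treatment. The deposited values are regularised log (rlog) values, which are on a log2 scale, and a deviation of a line from the average of a gene is shrunken towards 0. They hold no read counts, and the depth of each library is therefore unknown. Of 12 fibroblast markers, 11 had an average above 10, with Thy1 as the exception at 4.74. No epithelial, endothelial, blood, muscle or pluripotency marker reached 10, whereas the neural markers Tubb3 and Map2 had averages of 11.26 and 12.08. No library was identical to another.

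A ribosome holds a single copy of nearly every one of these proteins, and cells make them in matched amounts. Surplus ribosomal protein is degraded, so that the balance is set largely after transcription. The genes are scattered over the genome, are transcribed at very high levels in growing cells, and as a rule begin transcription at a C within a run of pyrimidines, the 5′ terminal oligopyrimidine (TOP) tract, through which mTOR and LARP1 control their translation. Loss of a copy of a ribosomal protein gene is known to impair growth, and free Rpl5 and Rpl11 bind Mdm2 and stabilise p53.

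The start region is shown for 8 members, chosen to set 4 core genes with a long tract beside 4 members with a large difference between the sets of lines. These groups were chosen by different criteria, and a link between tract and difference was not tested. The choice was limited to members with a matched promoter, and Rps29 had none. The sequences are from RefSeq on GRCm38.p6 and run 5′ to 3′ from 20 bases before the annotated start through the first 10 transcribed bases. Capitals mark the longest run of C and T within 5 bases of the start, among the bases shown.
Rpl35 (chr2:39005122-39005151, minus strand): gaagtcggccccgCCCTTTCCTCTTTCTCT
Rpl15 (chr14:18270977-18271006, minus strand): ggattgtgggagaaagCCTTCTTCCTTTCC
Rpl28 (chr7:4792945-4792974, plus strand): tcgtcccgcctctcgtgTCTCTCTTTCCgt
Rps6 (chr4:86857358-86857387, minus strand): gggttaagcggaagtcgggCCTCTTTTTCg
Rps7 (chr12:28635944-28635973, minus strand): gaagagcttccggTTTCCacccacctactt
Rpl36al (chr12:69184058-69184087, minus strand): gttcgcattcccgtcgCTCaggttcagttc
Rpl22l1 (chr3:28805488-28805517, plus strand): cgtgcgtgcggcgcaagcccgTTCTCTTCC
Rpl7l1 (chr17:46782647-46782676, minus strand): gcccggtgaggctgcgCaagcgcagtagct
The run continues past the bases shown in Rpl35, Rpl15 and Rpl22l1, where its whole length was 18, 17 and 10 bases. It was 5 bases long in Rps7, 3 in Rpl36al and 1 in Rpl7l1. RefSeq promoters were matched for 57 of the 77 core genes, and a gene with several starts was counted once, with its longest run and with any match. The median run was 6 bases, against 4 over all 27025 genes with a promoter. The base at the annotated start was a C in 35.1% of the 57, against 18.9% of all genes. The starts are those of the annotation and were not measured here. The letters CTTTCC were searched on the coding strand, wholly within 20 bases either side of the start, and were found in 10 of the 57 core genes (17.5%) and in 2 of the 7 paralogues, against 2.30% of all genes. On the other strand, where the motif reads GGAAAG, it was in 0 of the 57, against 2.03% of all genes. A match is a description of the sequence alone, and a missing match says nothing about other tracts.

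The core genes were among the most highly expressed genes of the lines. Their averages over the 16 lines had a median of 15.25, 70 of the 77 were above the 95th percentile of the protein-coding genes, and 29 were among the 200 highest. Rplp0, which encodes the scaffold of the stalk that binds elongation factors, had the highest average of all members (17.66, rank 27 among the protein-coding genes). To compare genes, the log2 of the length of the main transcript in kilobases was subtracted from the average, which was possible for 72 core genes. On this scale of level per kilobase, the median was 15.27 over 39 large-subunit genes and 15.85 over 30 small-subunit genes. The highest level per kilobase was that of Rplp1 (17.44), followed by the small-subunit gene Rps12 (17.23) and Rplp0 (17.22). The core genes with the lowest level per kilobase were Rps27 (10.58), Rpl5 (11.30), which binds the 5S RNA, and Rpl12 (11.61), which lies at the base of the stalk. The assignment of reads between these genes and similar copies elsewhere in the genome was not tested, so that their low levels are uncertain.

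For 2 core genes, a near-identical copy among the members had the higher level. Rps27, on chromosome 3, was at 8.77 to 9.45 in the 16 lines, whereas its retrogene copy Rps27rt, on chromosome 9, was at 14.49 to 15.05. Rpl10, on the X chromosome, was at 13.31 to 13.76, and its coding copy Rpl10-ps3, on chromosome 9, was at 15.62 to 16.18. As reads from near-identical transcripts can be assigned to either copy, the separate levels of Rps27 and Rps27rt and of Rpl10 and Rpl10-ps3 are uncertain. Rps12-ps3, on chromosome 19, was at 11.67 to 12.33 in 8 lines (both parental lines, MEF-1 clones 3 and 4, and MEF-2 clones 2, 3, 5 and 7) and at 5.66 to 5.72 in the other 8, with no line in between. Rps12 itself was at 16.05 to 16.65 in all 16 lines. The assignment of reads between Rps12 and Rps12-ps3 was not tested, so that both levels of Rps12-ps3 are uncertain as well. Both levels of Rps12-ps3 occurred in clonal lines of MEF-1 and of MEF-2, and the difference between the sets did not pass (1.81, SE 1.55, adjusted p = 0.358). Among the other members at the low end, Rpl36a-ps1 was at 3.19 to 4.54 and Rpl9-ps6 at 2.44 to 3.72. The muscle paralogue Rpl3l (−0.94 to −0.60), Rpl39l (−1.94 to −1.87), the paralogue known from testis, and Rpl9-ps1, the member with the lowest average (−2.28), were at or near the bottom of the scale, and Rpl36-ps4 was listed at exactly 0 in every line. These 4 did not have an average above 0 and were not tested, which left 86 members. Of 283 further copies that carry a "-ps" symbol and are annotated as pseudogenes, 6 had an average above 10, led by Rps23-ps1 at 14.65 and Rpl28-ps1 at 14.03. Copies under other symbols were not examined. The average of Rps23-ps1 was above that of the core gene Rps23, so that the separate levels of this pair are uncertain as well.

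Between the clonal sets, 31 of the 77 core genes passed the test, of which 27 were higher and 4 lower in MEF-2. The difference was less than 0.1 on the log2 scale for 31 of the 77 and over 0.5 for 2 (Rps7 and Rps29). Of the 86 tested members, 32 were higher in MEF-2 and 4 were lower, and 50 did not pass the test (adjusted p below 0.05). Over all 21313 genes tested, 48.3 percent were called in either direction, 22.6 percent higher and 25.7 percent lower in MEF-2, and the corresponding shares of the members were 37.2% and 4.65%. These shares are a description, without a test of the list. The 4375 protein-coding genes in the highest expression group, which are closer to the members in level, were called higher in 31.5% and lower in 23.3%. The median difference (MEF-2 minus MEF-1, log2) was 0.11 over the members, 0.039 over those highly expressed genes and −0.022 over all genes tested. In the large subunit, 14 of 43 genes were higher and 2 lower. In the small subunit, 13 of 31 were higher and 1 lower. Of the stalk genes, Rplp1 was lower, and Rplp0 and Rplp2 did not pass. All 7 MEF-2 clonal lines lay above all 7 MEF-1 clonal lines for 7 members (Rps7, Rps9, Rps29, Rpl39, Rpl36al, Rpl7l1 and Rpl22l1) of the 86, against 9.91 percent of all genes, and below them for Rpl22 alone, against 11.3 percent.

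The chromosomes that carry the members also differed between the sets. For each line, the level of a chromosome was taken as a median over its expressed protein-coding genes, members excluded, each gene being expressed relative to its average in the 14 clonal lines. Relative to the median autosome, chromosome 12 was 0.63 lower in the MEF-1 than in the MEF-2 clonal lines, chromosome 18 was 0.29 lower, and chromosome 19, which carries no core gene, was 0.37 higher. Chromosome 7 was 0.098 lower and the X chromosome 0.084 lower in MEF-1. The level of the chromosome was then subtracted from each member in each line, and the fit across all genes was repeated. After subtraction, 23 of the 86 members were higher in MEF-2 (26.7%) and 3 were lower (3.49%), and the median difference of the core genes was 0.094. Of the 21245 genes in that fit, 49.2 percent were called in either direction, 21.8 percent higher and 27.4 percent lower. The highly expressed protein-coding genes were called higher in 30.6% and lower in 25%. The share of members called higher was thus below that of genes closer to them in level. Of the 31 core genes called on the values themselves, 18 were also called after subtraction (15 higher and 3 lower), and 3 core genes were called after subtraction alone. The number of members higher after subtraction was 38 without MEF-2 clone 3, 15 without MEF-2 clone 6, and 39 when the mean of the chromosome was subtracted in place of the median, with 21 of the 23 members among those 39.

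**Figure D1:**
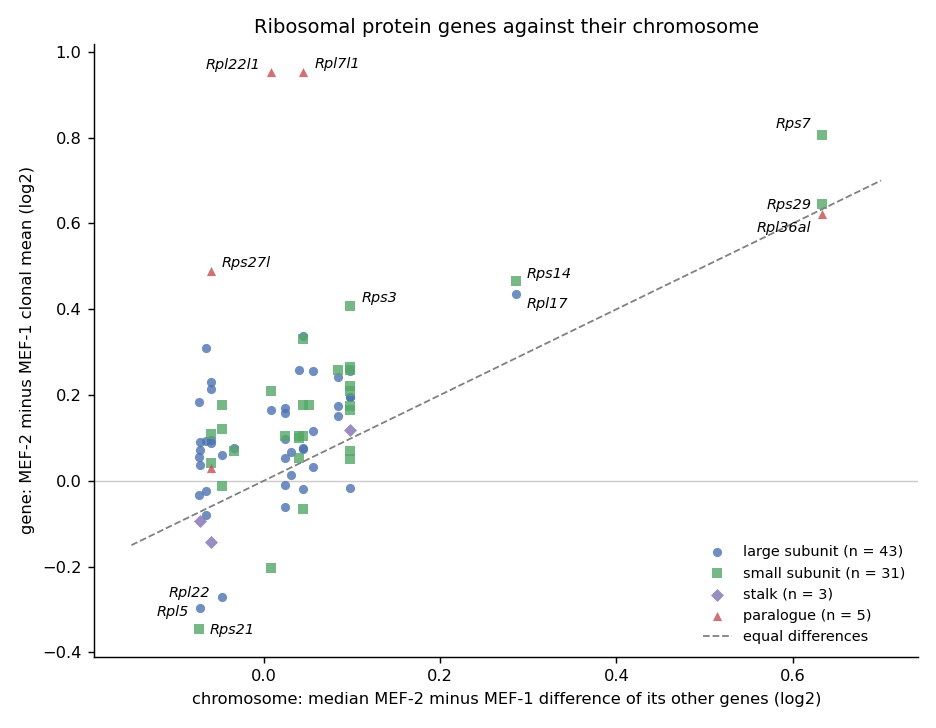
The MEF-2 minus MEF-1 difference of each tested core gene and paralogue (vertical axis, log2) is plotted against the difference of its chromosome (horizontal axis, log2), with symbols for the 43 large-subunit, 31 small-subunit and 3 stalk genes and the 5 tested paralogues. Rps29 and Rpl36al on chromosome 12 lie next to the line of equal differences at 0.63, whereas Rpl22l1 and Rpl7l1 lie at 0.95 on chromosomes that differed by less than 0.1.

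Chromosome 12 carries 3 members, and all 3 were lower in every MEF-1 clonal line than in any MEF-2 clonal line. Rps7 (chr12:28630854-28635953, minus strand), a small-subunit protein that also binds Mdm2, was at 14.47, 14.86 and 15.02 (lowest, median and highest) in the MEF-1 clones and at 15.53, 15.61 and 15.72 in the MEF-2 clones. The lowest value was that of MEF-1 clone 2, and the sets did not overlap. The difference was 0.81 (SE 0.070, adjusted p = 2.43e-07), a 1.75-fold change on the shrunken scale. Rps29 (chr12:69157722-69159186, minus strand), a small zinc-binding protein of the small-subunit head, was at 13.70, 13.88 and 14.02 in MEF-1 and at 14.35, 14.49 and 14.63 in MEF-2. It differed by 0.65 (SE 0.057, adjusted p = 2.79e-07). Rpl36al (chr12:69182731-69184083, minus strand), the autosomal paralogue of the X-linked Rpl36a, was at 11.59, 11.74 and 11.98 in MEF-1 and at 12.25, 12.42 and 12.50 in MEF-2, with a difference of 0.62 (SE 0.063, adjusted p = 1.14e-06).

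Measured against chromosome 12 itself, which stood at −0.36 to −0.31 in the MEF-1 clones and at 0.28 to 0.33 in the MEF-2 clones, Rps29 differed by 0.0060 (95% interval −0.11 to 0.12, adjusted p = 0.937) and Rpl36al by −0.018 (−0.14 to 0.11, adjusted p = 0.817). Their differences were thus of the size of that of their chromosome. Rps7 still differed by 0.17 (0.03 to 0.30, adjusted p = 0.0382). This last call was lost in 9 of 14 fits that left out a single line (MEF-1 clones 1, 2 and 6 and MEF-2 clones 1, 2, 4, 5, 6 and 7), with differences of 0.12 to 0.20 over the 14 fits and adjusted p-values of 0.0512 to 0.0715 in the 9. In the parental lines, Rps7 was at 15.05 in MEF-1 and 15.44 in MEF-2, Rps29 at 14.01 and 14.35, and Rpl36al at 12.09 and 12.40, while the chromosome was at −0.068 and 0.27. The MEF-1 parental line therefore lay above each of its 7 clones for Rps7 and Rpl36al, and above 6 of 7 for Rps29.

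Chromosome 18 carries Rps14 and Rpl17, and here the MEF-1 clonal lines differed among themselves. Rps14 (chr18:60747098-60778546, plus strand), the small-subunit protein whose gene lies in the region lost in the human 5q− syndrome, was at 15.16 in MEF-1 clone 1, 15.10 in clone 4 and 15.30 in clone 5, and at 15.50, 15.82, 15.88 and 15.92 in clones 2, 3, 6 and 7. Rpl17 (chr18:74998558-75003381, plus strand), a large-subunit protein near the exit of the peptide tunnel, was at 14.61, 14.48 and 14.63 in clones 1, 4 and 5 and at 14.97, 15.20, 15.14 and 15.26 in clones 2, 3, 6 and 7. The same 3 clones were the lowest for chromosome 18 as a whole, at −0.50, −0.50 and −0.46, whereas clones 2, 3, 6 and 7 were at 0.060, 0.052, 0.12 and 0.15. The MEF-2 clones were at 0.11 to 0.14 for the chromosome, at 15.80 to 16.11 for Rps14 and at 15.17 to 15.48 for Rpl17. The parental line of MEF-1 was between these levels for the chromosome (−0.15) and at 15.28 and 14.72 for Rps14 and Rpl17.

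Rps14 had the largest spread of all core genes among the MEF-1 clonal lines (SD 0.35, n = 7), against 0.12 among the MEF-2 clonal lines, and Rpl17 had an SD of 0.32 and 0.11. Between the sets, Rps14 differed by 0.47 (SE 0.13, adjusted p = 0.00744) and Rpl17 by 0.44 (SE 0.12, adjusted p = 0.0066). After subtraction of the chromosome, the differences were 0.17 (SE 0.061, adjusted p = 0.0301) and 0.14 (SE 0.050, adjusted p = 0.0263). The subtracted call of Rps14 was lost in 6 of 14 fits without a single line (MEF-1 clones 1, 2 and 4 and MEF-2 clones 1, 4 and 6, adjusted p = 0.0511 to 0.0644), and that of Rpl17 in 5 (MEF-1 clones 2 and 4 and MEF-2 clones 2, 5 and 6, adjusted p = 0.0507 to 0.0578).

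**Figure D2:**
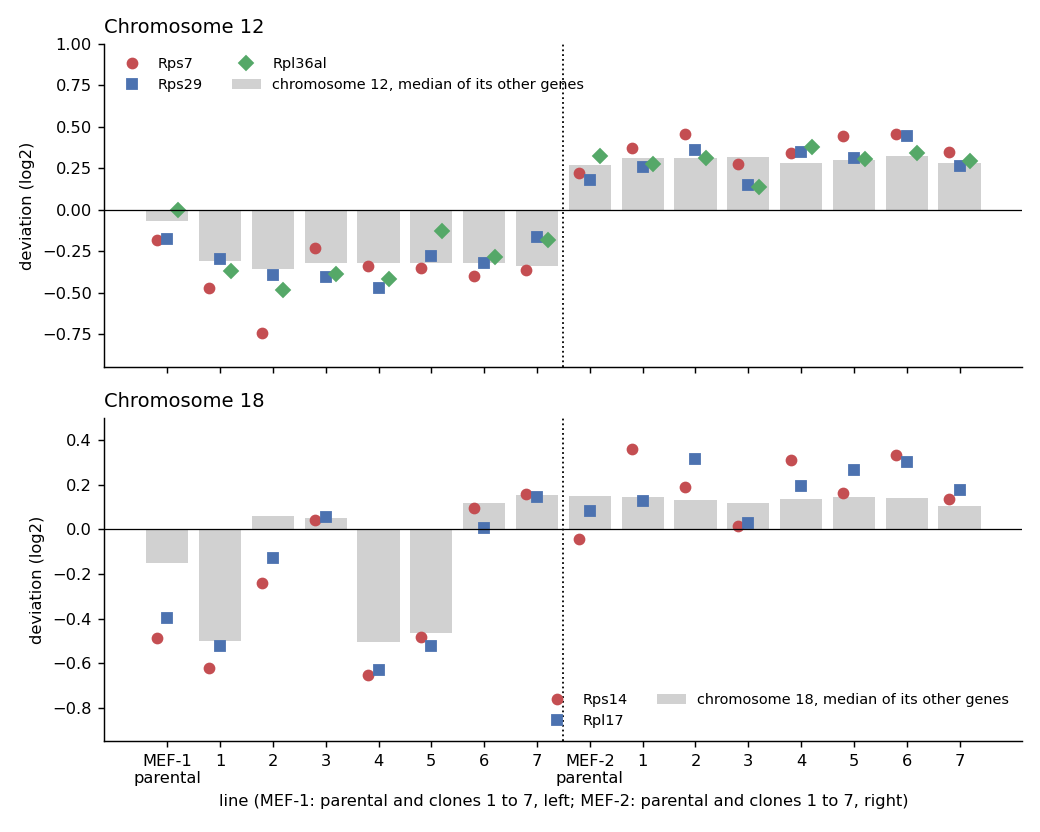
For each of the 16 lines, grey bars show the deviation of chromosome 12 (top) and 18 (bottom) and symbols show its ribosomal protein genes, as deviations from the average of the 14 clonal lines (log2) centred on the median autosome of the line. On chromosome 12 all genes lie below 0 in the MEF-1 clones and above 0 in the MEF-2 clones, and on chromosome 18 the low MEF-1 clones are 1, 4 and 5.

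The X chromosome carries 4 core genes. In female mammals all X chromosomes but a single copy are silenced in each cell, and MEF-1 is male whereas MEF-2 is female. As each sex is represented by 1 embryo, sex cannot be told apart from embryo or line. Rps4x, a small-subunit protein, was at 16.04, 16.37 and 16.53 (lowest, median and highest) in MEF-1 and at 16.49, 16.60 and 16.75 in MEF-2. Its difference was 0.26 (SE 0.072, adjusted p = 0.00761). Rpl39, a very short protein of the exit tunnel, was at 14.43 to 14.75 in MEF-1 and at 14.83 to 15.04 in MEF-2, without overlap, and differed by 0.24 (SE 0.055, adjusted p = 0.00212). Rpl10, which takes part in subunit joining, differed by 0.17 (SE 0.065, adjusted p = 0.0377), a call that was lost in 8 of 14 fits without a single line (MEF-1 clones 1, 2, 3 and 7 and MEF-2 clones 2, 4, 6 and 7, adjusted p = 0.0592 to 0.0803). For Rpl36a the difference was 0.15 (SE 0.079, adjusted p = 0.131). Against the X chromosome, the differences were 0.17 for Rps4x (adjusted p = 0.0609), 0.15 for Rpl39 (adjusted p = 0.026), 0.084 for Rpl10 and 0.060 for Rpl36a (adjusted p = 0.278 and 0.526). The subtracted call of Rps4x was gained without MEF-1 clone 3 or without MEF-2 clone 3 (adjusted p = 0.0235 and 0.0361), and that of Rpl39 was lost without MEF-2 clone 5 or without MEF-2 clone 6 (adjusted p = 0.0535 and 0.0557).

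On the remaining autosomes, 20 of 69 core genes were higher in MEF-2 (29%) and 4 were lower (5.8%). The called differences of those that were higher were 0.16 to 0.41. Over all genes tested, 22.6 percent were called higher and 25.7 percent lower. Among the highly expressed protein-coding genes, the shares were 31.5% and 23.3%. Chromosome 7 holds the most core genes of any chromosome, 14, of which 9 (64.3%) were higher in MEF-2 and 0 lower on the values themselves. After subtraction, 2 of the 14 (Rps3 and Rps9, 14.3%) remained higher. The largest difference on these autosomes was that of Rps3, at the mRNA entry of the small subunit and also known for a role in DNA repair. It was at 15.64, 15.85 and 16.04 in MEF-1 and at 15.98, 16.23 and 16.39 in MEF-2, with a difference of 0.41 (SE 0.075, adjusted p = 0.000368), and of 0.30 after subtraction (adjusted p = 0.00321). Rpl3, next to the peptidyl transferase centre, had a median of 16.13 and a highest value of 16.34 in MEF-1 and was at 16.29 to 16.67 in MEF-2, and differed by 0.31 (SE 0.075, adjusted p = 0.00314) and by 0.37 after subtraction (adjusted p = 0.000693). Rps2, which lines the mRNA channel, had a difference of 0.33 that did not pass (SE 0.14, adjusted p = 0.0609), and it had the largest spread of all core genes among the MEF-2 clonal lines (SD 0.31, n = 7), with 17.46 and 17.43 in MEF-2 clones 2 and 7 against 16.67 to 17.16 in the other 5.

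Of the 4 tested genes with a "-ps" symbol, Rpl10-ps3 was higher in MEF-2 by 0.175 (SE 0.063, adjusted p = 0.0314) and by 0.23 after subtraction of chromosome 9 (adjusted p = 0.00502). Rpl9-ps6, on chromosome 19, had a difference of 0.12 that did not pass (adjusted p = 0.635) and of 0.49 after subtraction (adjusted p = 0.0497). The latter call was lost in 11 of 14 fits without a single line, all but those without MEF-1 clones 4 and 5 and MEF-2 clone 7 (adjusted p = 0.0618 to 0.105).

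The core genes that were lower in MEF-2 were Rps21, Rpl5, Rpl22 and Rplp1. Rps21, of the small-subunit body, was at 14.14, 14.29 and 14.42 in MEF-1 and at 13.60, 13.97 and 14.16 in MEF-2, and differed by −0.35 (SE 0.078, adjusted p = 0.00183). Its lowest value was in MEF-2 clone 3, the clone in which chromosome 2, the chromosome of Rps21, stood at −0.27. Rpl5 was at 12.29 to 12.86 in MEF-1 and at 12.03 to 12.34 in MEF-2, with a difference of −0.30 (SE 0.087, adjusted p = 0.0105). After subtraction the differences were −0.28 for Rps21 (adjusted p = 0.00155) and −0.23 for Rpl5 (adjusted p = 0.0162). Rplp1 differed by −0.14 (adjusted p = 0.0376) and by −0.091 after subtraction (adjusted p = 0.154), and the first of these calls was lost in 10 of 14 fits without a single line (MEF-1 clones 3 to 7 and MEF-2 clones 1 and 3 to 6, adjusted p = 0.0523 to 0.0803).

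Among genes with known roles outside the ribosome or in disease, Rpl11, the partner of Rpl5 in binding Mdm2, was at 14.82 to 15.09 in MEF-1 and at 14.79 to 15.18 in MEF-2, and its difference of 0.060 did not pass (95% interval −0.08 to 0.20, adjusted p = 0.474). Rpl26, which binds the p53 mRNA, differed by 0.17 (adjusted p = 0.0483), a call lost in 10 of 14 fits without a single line (MEF-1 clones 1, 2, 4 and 6 and MEF-2 clones 1, 2, 4, 5, 6 and 7, adjusted p = 0.0504 to 0.0947). Rps19, the gene most often mutated in Diamond-Blackfan anaemia, differed by 0.21 (adjusted p = 0.0328), a call lost in 6 of 14 such fits (MEF-1 clones 1 and 2 and MEF-2 clones 2, 4, 5 and 7, adjusted p = 0.0535 to 0.0665). After subtraction of their chromosome, Rpl26 and Rps19 differed by 0.14 and 0.11 and did not pass (adjusted p = 0.0881 and 0.249). Rps6, the substrate of the S6 kinases, had a difference of 0.12 that did not pass (adjusted p = 0.144). After subtraction its difference was 0.16 (adjusted p = 0.043), a call lost in 9 of 14 fits without a single line (MEF-1 clones 1, 2, 4 and 6 and MEF-2 clones 2 and 4 to 7, adjusted p = 0.0605 to 0.0897). Rpsa, known also as the laminin receptor, and Rplp0 did not pass, at 0.11 (−0.08 to 0.30) and −0.093 (−0.33 to 0.14).

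The largest called differences of all members were those of the paralogues Rpl22l1 and Rpl7l1, on chromosomes that differed by 0.0081 and 0.045 between the sets. Paralogues are related genes whose proteins can take the place of a core protein in the ribosome or have acquired roles outside it. Rpl22l1 (chr3:28805436-28807424, plus strand), which is known to be repressed by Rpl22 protein, was at 11.54, 11.76 and 11.96 (lowest, median and highest) in the MEF-1 clones and at 12.44, 12.62 and 12.98 in the MEF-2 clones, without overlap. The difference was 0.95 (SE 0.088, adjusted p = 4.84e-07), or 1.93-fold, and 0.94 after subtraction of chromosome 3 (adjusted p = 3.3e-07). Rpl22 (chr4:152325742-152334071, plus strand) was at 14.54, 14.58 and 14.68 in MEF-1 and at 14.18, 14.33 and 14.44 in MEF-2, also without overlap but in the opposite direction. It differed by −0.27 (SE 0.049, adjusted p = 0.000326) and by −0.23 after subtraction (adjusted p = 0.00123), and had the smallest spread of all core genes among the MEF-1 clonal lines (SD 0.055). The log2 ratio of Rpl22l1 to Rpl22, not corrected for length, was −2.88 ± 0.13 (SD, n = 7) in MEF-1 and −1.65 ± 0.28 in MEF-2.

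Rpl7l1 (chr17:46773907-46782672, minus strand), a nucleolar paralogue of Rpl7, had the lowest adjusted p of all members. It was at 11.88, 12.13 and 12.21 in MEF-1 and at 12.99, 13.05 and 13.07 in MEF-2, and differed by 0.95 (SE 0.050, adjusted p = 1.07e-09), or 1.94-fold, and by 0.90 after subtraction (adjusted p = 5.32e-08). Its spread among the MEF-2 clonal lines was 0.026 (SD, n = 7). Rpl7 was at 15.86 to 16.27 in MEF-1 and at 16.20 to 16.43 in MEF-2 and differed in the same direction by 0.26 (SE 0.062, adjusted p = 0.00289). Rps27l (chr9:66946086-66949516, plus strand), a known target of p53, was at 11.69, 11.84 and 12.16 in MEF-1 and at 11.95, 12.40 and 12.53 in MEF-2, with an overlap that came from MEF-2 clone 3. It differed by 0.49 (SE 0.097, adjusted p = 0.000695) and by 0.54 after subtraction (adjusted p = 0.000403). Its partner Rps27 had a difference of −0.20 (adjusted p = 0.121), and the retrogene Rps27rt of 0.029 (adjusted p = 0.739). The parental lines were at 11.82 (MEF-1) and 12.56 (MEF-2) for Rpl22l1, at 12.26 and 13.02 for Rpl7l1, and at 12.28 and 12.35 for Rps27l. Rpl22l1 and Rpl7l1 thus differed between the parental lines in the direction seen in the clonal lines, whereas for Rps27l the MEF-1 parental line lay above all 7 of its clones.

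**Figure D3:**
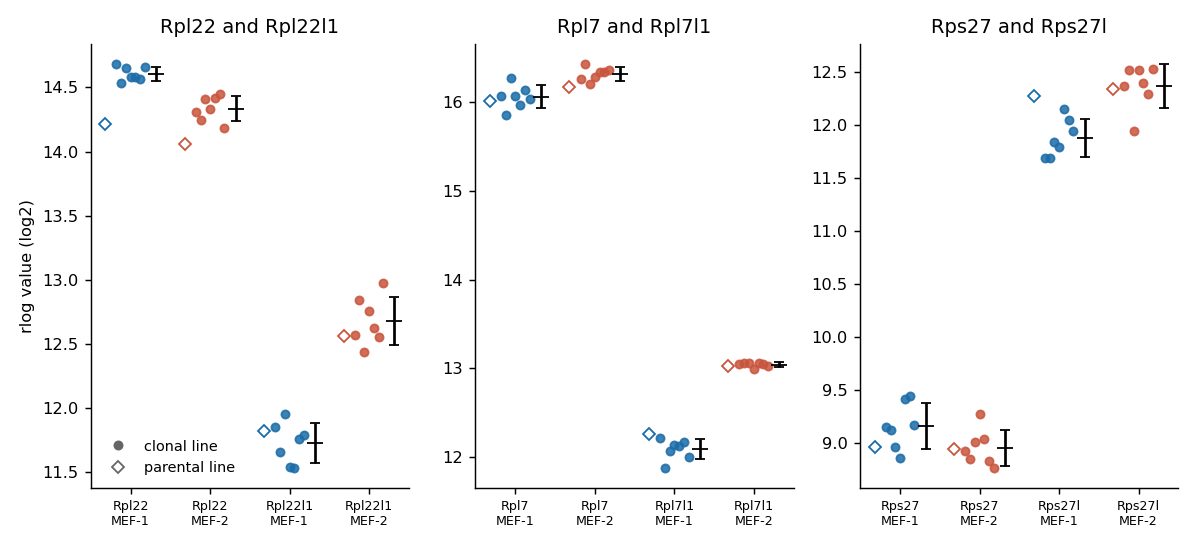
Rlog values (vertical axis, log2) of 3 core genes and their paralogues are plotted for the clonal lines of MEF-1 (blue) and MEF-2 (red), with filled circles for clonal lines, open diamonds for parental lines and bars for the mean ± SD of 7 clonal lines. Rpl22 is lower and Rpl22l1 higher in MEF-2 without overlap, and Rpl7l1 is at 12.99 to 13.07 in all MEF-2 clones.

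Single clonal lines departed from the rest of their set on other chromosomes too, and the core genes of those chromosomes moved with them. For each clonal line, the deviation of a chromosome was taken from the median of the 7 clonal lines of its set, and the median of its core genes was set against the median of the core genes of the other chromosomes in the same line. The chromosome deviation is computed without the members. A chromosome was counted as standing apart when it deviated by over 0.1, a limit chosen after the values had been seen. This gave 19 of 266 combinations of a chromosome and a line, 13 below and 6 above the set. In 18 of the 19, the core genes deviated in the direction of the chromosome. Taken gene by gene, 75 of 84 values (89.3%) lay on the side of the chromosome, against 440 of 833 (52.8%) on chromosomes that did not stand apart, leaving out the lines whose deviation was 0 because they were the median of their set.

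Beyond chromosome 18 in MEF-1 clones 1, 4 and 5, the lowest deviation was that of chromosome 17 in MEF-1 clone 1 (−0.26). Its 6 core genes (Rps2, Rpl10a, Rps18, Rps28, Rps10 and Rpl36) were at −0.22 relative to other core genes. Chromosomes 2 and 14 in MEF-2 clone 3 came next (−0.25 and −0.25). In MEF-2 clone 3, the 4 core genes of chromosome 2 (Rpl7a, Rpl35, Rps21 and Rpl12) were at −0.24 and the 2 of chromosome 14 (Rps24 and Rpl15) at −0.29. Chromosome 14 was also low in MEF-1 clone 2 (−0.24), where Rps24 and Rpl15 were at −0.21. Chromosome 16 was low in MEF-1 clone 6 (−0.21), with Rpl24 and Rpl35a at −0.24. The highest deviation was that of chromosome 5 in MEF-1 clone 7 (0.26), with Rplp0, Rpl5, Rpl6, Rpl9 and Rpl21 at 0.27. In MEF-1 clone 5, chromosome 15 was at 0.18 and its 4 core genes at 0.17, and chromosome 7 was at 0.13 and its 14 core genes at 0.15, with 13 of the 14 above 0. The exception was chromosome 11 in MEF-1 clone 6, at −0.12, whose 7 core genes had a median of 0 relative to the others. These deviations are in RNA, and the number of chromosome copies was not measured here. From the coverage of its bisulfite libraries, the paper proposes monosomy of chromosomes 12 and 18 in some or all MEF-1 lines. It also counts chromosome 19 as aneuploid in at least 1 of the lines. Beyond chromosomes 12, 18 and 19, it names none as aneuploid.

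**Figure D4:**
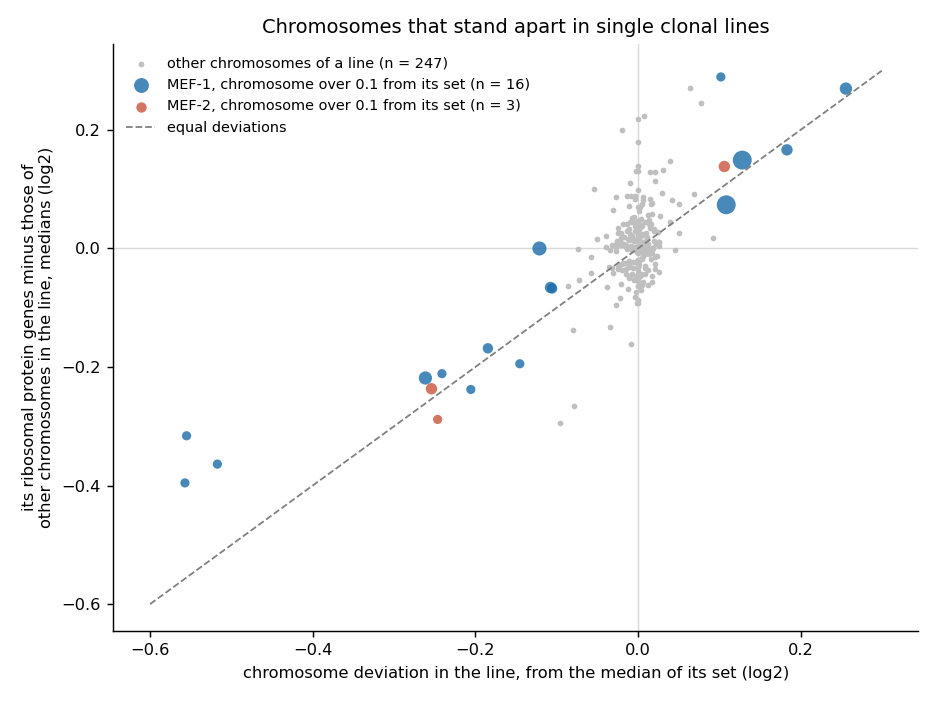
Each point is a chromosome in a clonal line, placed by the deviation of the chromosome from its set (horizontal axis, log2) and by the median of its core genes minus that of the other core genes of the line (vertical axis, log2), with larger points for more genes. The 19 coloured points are chromosomes over 0.1 from their set, 16 in MEF-1 and 3 in MEF-2, and 18 of them lie on the same side of 0 on both axes.

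Subtraction of the chromosome lowered the spread of the core genes where chromosomes varied. Among the MEF-1 clonal lines, the median SD of the core genes was 0.15 before and 0.12 after, and it was lower after for 59 of 77 genes. Among the MEF-2 clonal lines it was 0.12 before and after, and lower after for 33 of 77. The spread of the core genes before subtraction was close to that of the 4375 highly expressed protein-coding genes, whose median SD was 0.14 in MEF-1 and 0.11 in MEF-2. Rps7 had the smallest SD of all core genes among the MEF-2 clonal lines (0.067).

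The core genes also moved as a group between lines. Each gene was set relative to its average in the clonal lines, and the median over the 77 genes was lowest in MEF-1 clone 2 (−0.26, with 73 of 77 genes below 0) and highest in MEF-2 clone 2 (0.18, with 69 of 77 above 0). In the other MEF-1 clonal lines it was between −0.10 and 0.067. In MEF-2 clone 3 it was −0.12, with 64 of 77 below 0, and in the other 5 MEF-2 clonal lines it was between −0.011 and 0.11. The means of the sets were −0.054 ± 0.11 (SD, n = 7) and 0.064 ± 0.098, so that the sets overlapped. In MEF-1 clone 2, the medians of the translation factors and other TOP genes (−0.20), of ribosome biogenesis (−0.43, with 28 of 30 genes below 0) and of the mitochondrial ribosomal proteins (−0.15) were also below 0, and in MEF-2 clone 2 they were at 0.13, 0.19 and 0.10. Both parental lines were low for the core genes, at −0.15 in MEF-1 (72 of 77 below 0) and −0.070 in MEF-2 (62 of 77 below 0). In the same parental lines, the TOP genes were at −0.11 and −0.067, whereas the biogenesis genes were at 0.18 and 0.26 and the mitochondrial ribosomal proteins at 0.14 and 0.034. In MEF-1, 14 of the 77 core genes were lower in the parental line than in any of its 7 clones and 2 were higher, against 18.9% and 19.4% of all genes. In MEF-2, 27 were lower and 0 were higher, against 16.5% and 15.9% of all genes. Each parental line has 1 library, and the difference was not tested. In bulk samples, fewer cells of a type and less RNA per cell cannot be told apart.

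**Figure D5:**
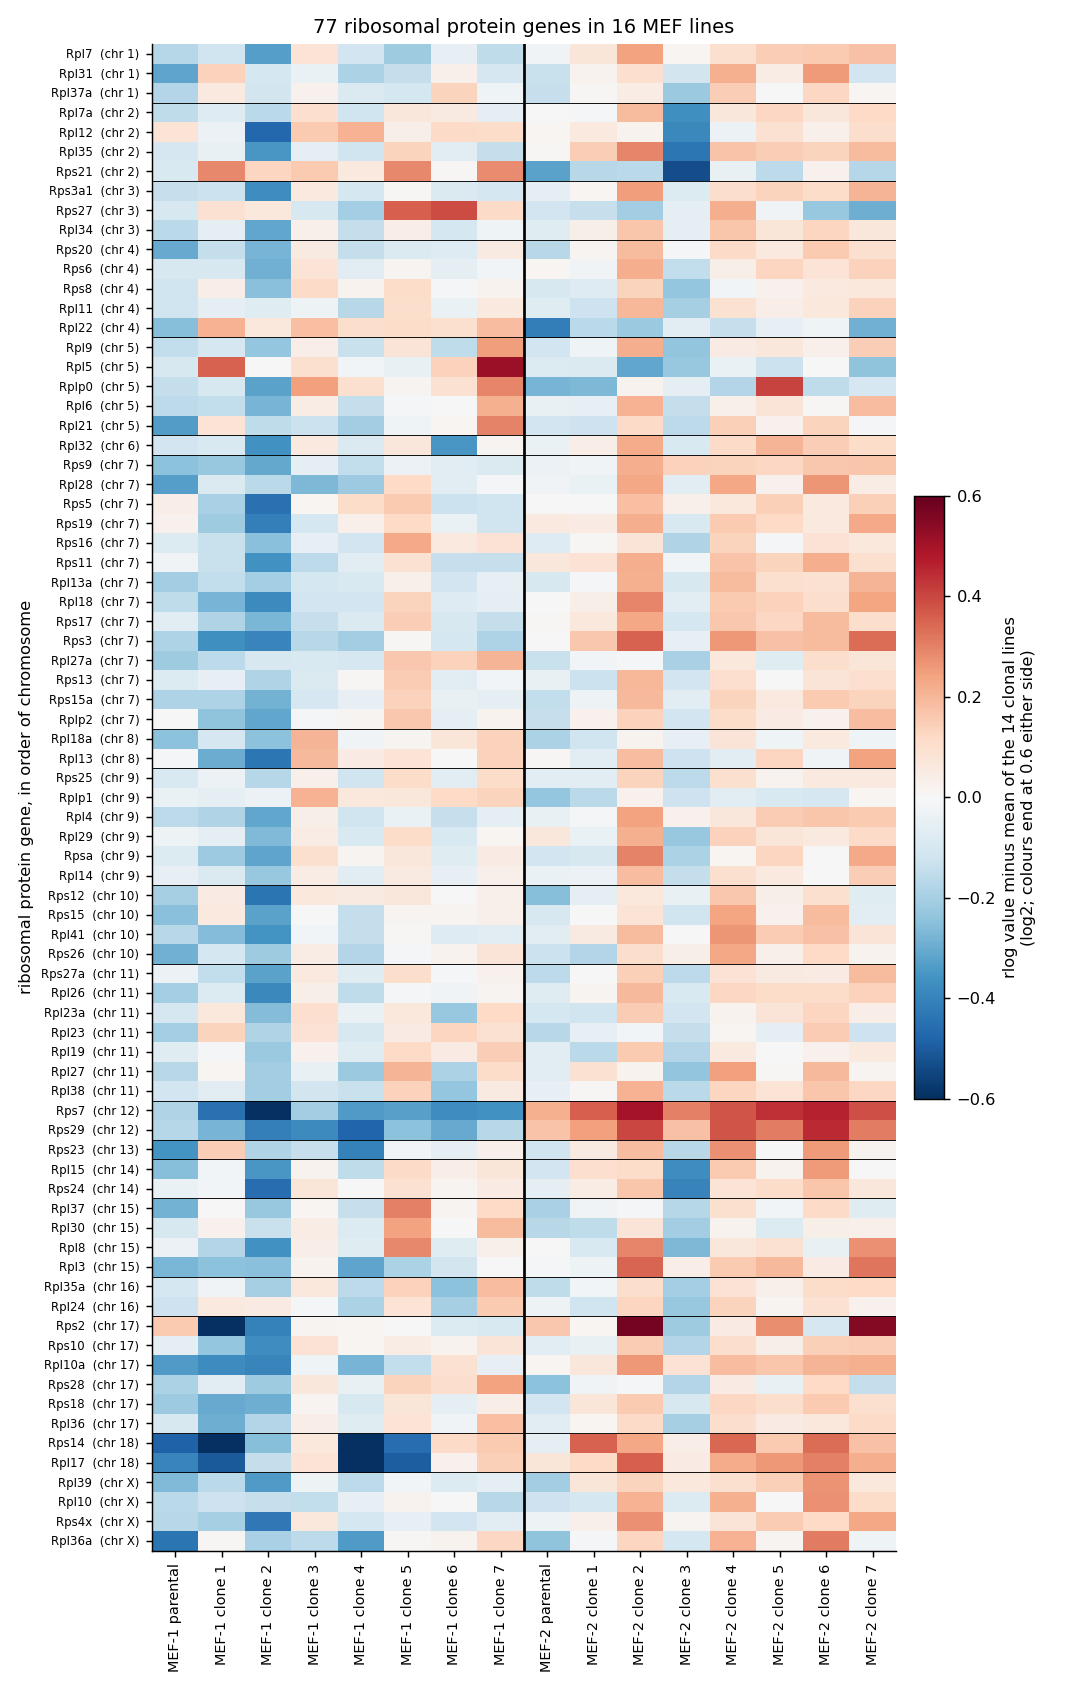
The heat map shows the 77 core genes (rows, in order of chromosome) in the 16 lines (columns), as the deviation of the rlog value from the average of the 14 clonal lines (log2, red above and blue below, with colours ending at 0.6). The columns of MEF-1 clone 2 and MEF-2 clone 2 stand out as blue and red, and Rps7 and Rps29 on chromosome 12 are blue in all MEF-1 and red in all MEF-2 lines.

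Other genes of the ribosome and of translation were counted in the same fits. Over all genes tested, 22.6 percent were higher and 25.7 percent lower in MEF-2. Among the highly expressed protein-coding genes, the shares were 31.5% and 23.3%. The lists were not tested as sets. Of ribosomal components outside the members, Fau, whose product includes the small-subunit protein eS30, lies on chromosome 19 and was lower in MEF-2 by 0.18 on the log2 scale (adjusted p = 0.0349), but after subtraction of its chromosome it was higher by 0.19 (adjusted p = 0.0179). Rack1, a scaffold protein of the small subunit, had a difference of 0.21 that did not pass (adjusted p = 0.054). Of 18 translation factors and other genes with a TOP start, 10 were higher in MEF-2 and 2 lower, with Eef1a1 at 0.21 (adjusted p = 0.0328) and Eif4a2 at −0.51 (adjusted p = 0.000105). Of 30 genes of ribosome biogenesis, 18 were higher and 2 lower, with a median difference of 0.26, and Bop1 and Noc2l were at 0.48 and 0.50. Of 14 genes of RNA polymerase I, 8 were higher and 1 lower, with Polr1e at 0.96 (adjusted p = 3.42e-07). Of 17 regulators, 4 were higher (23.5%) and 5 lower (29.4%), which was close to the shares over all genes. Larp1, which binds the TOP tract, was at −0.32 (adjusted p = 0.00675), and Myc at 0.16 (adjusted p = 0.525). Of 78 mitochondrial ribosomal protein genes, which work in a separate ribosome, 22 were higher (28.2%) and 13 lower (16.7%), with a median of 0.054. After subtraction of the chromosome, the counts were 11 and 1 for the translation factors, 15 and 0 for biogenesis, 7 and 1 for RNA polymerase I, 1 and 4 for the regulators and 29 and 10 for the mitochondrial genes. The shares over all genes in that fit were 21.8 percent and 27.4 percent.

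Markers of proliferation, of p53 activity and of neural cells also differed between the sets. The shares over all genes tested were 22.6 percent higher and 25.7 percent lower in MEF-2. Of 10 cell cycle genes, 9 were higher in MEF-2 and 0 lower, with a median difference of 0.92, and the log2 of their summed level was 14.96 to 16.33 in the MEF-1 and 15.98 to 16.52 in the MEF-2 clones. Of 8 p53 targets, 7 were higher and 0 lower, with Cdkn1a at 2.61 and Mdm2 at 0.49, and the log2 of their summed level was 14.99 to 15.30 and 15.93 to 16.28. For the 3 neural markers, of which 2 were higher and 1 lower, the log2 of the summed level was 11.99 to 12.75 in MEF-1 and 13.28 to 13.67 in MEF-2. The part of these lists in the differences of the ribosomal protein genes was not tested.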

How the data were processed

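The authors sequenced rRNA-depleted, strand-specific total RNA, trimmed the reads with Trim Galore (0.6.0), quantified them with Salmon (1.5.2) and, with DESeq2 (1.24.0), made the deposited rlog values, which are on a log2 scale and shrunken, so that differences understate changes of poorly covered genes. How transcripts were summarised to genes and whether the transform was blind to the groups are not given in the sources used here. Counts were not used here, depth is unknown, and precision rests on the spread of 7 clones per set, each 1 library. Replicates are separate clones of 1 parental population, so p-values describe these clones.

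Gene IDs were matched to GENCODE mouse release 21 (Ensembl 96, mm10), with 54200 of 54453 found. Every line name in the expression table was matched to a sample (0 unmatched). Differences (MEF-2 minus MEF-1, 7 against 7 clonal lines) came from limma (3.58.1, R 4.3.3) with a trended prior over the 21313 genes with an average above 0, with two-sided p-values and Benjamini-Hochberg adjustment over all genes, and a call at an adjusted p below 0.05. The fit was repeated after subtraction of the chromosome median of each line, over 13014 expressed protein-coding genes (average above the 40th percentile) that were not members. The fit was tested on simulated data. Tables and plots were made with Python 3.11.15, pandas 2.3.3, numpy 2.4.6 and matplotlib 3.10.9.

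The genes described singly were the members on chromosomes 12, 18, 19 and X, the members with the largest called differences in each direction before (5) and after (3) subtraction, those with the highest and lowest average or the largest spread, the paralogues with their partners, the stalk genes and Rpsa, and Rpl5, Rpl11, Rpl26, Rps6, Rps14 and Rps19. Rps2, Rps3, Rps9, Rpl12, Rps12, Rps23, Rpl10-ps3, the pseudogene copies and the genes given for single-line deviations were chosen after their values were seen. The members and lists were chosen with earlier results of these data known. Alternatives covered the filter on low values, the prior, centring of lines, the parental lines, the clone number as a block, the chromosome summary and each line left out. A result of the lists is not reported here.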

Additional observations from a re-analysis of the deposited data

Results flagged for a closer look

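In 4 sets of 7 clonal lines, a line lay far from its set for a named member. Rplp0 was at 18.0884 in MEF-2 clone 5, where the nearest other clone was at 17.70. Rpl39 was at 15.0396 in MEF-2 clone 6, with the nearest at 14.91. Rps21 was at 13.6007 in MEF-2 clone 3, with the nearest at 13.96, and chromosome 2 was at −0.27 in that clone. Rps27l was at 11.9482 in MEF-2 clone 3, with the nearest at 12.29. Of 68 sets examined, 3.4 would be flagged by chance at 1 in 20. Over all tested members, 18 of 172 sets held such a line, where chance gives 8.6. The members move together between lines, so that the sets are not independent, and the difference from chance was not tested. Rps7 moved in opposite ways between the parental line and its clones, by −0.224312 on average in MEF-1 (lower in 7 of 7 clones) and by 0.191763 in MEF-2 (higher in 7 of 7), and this difference was not tested. Chromosome 12, which carries Rps7, was at −0.068 in the MEF-1 parental line and at −0.33 on average in its clones. In MEF-2 the chromosome was at 0.27 and 0.31. After subtraction of the chromosome, Rps7 was at 15.11 in the MEF-1 parental line and at 15.14 on average in its clones. In MEF-2 it was at 15.17 and 15.31, so that the clonal average lay above the parental line in both sets.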

How the results depend on the processing

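On the values themselves, 22 to 36 members were higher and 3 or 4 lower in MEF-2 under every alternative run, against 32 and 4. After subtraction of the chromosome, the number higher (23) was 39 with the chromosome mean and 15 (without MEF-2 clone 6) to 38 (without MEF-2 clone 3) when single lines were left out, and the number lower was 2 to 4; the cause was not tested. With the clone number as a replicate block, 22 were higher on the values and 14 after subtraction. Lines with the same number correlated at −0.15 to 0.17 and in 0 of 7 pairs best with their own number, so the numbers do not pair the lines. When genes with an average above 0 set the level of a chromosome, chromosome 12 was at −0.29, −0.33, −0.30, −0.30, −0.30, −0.30 and −0.32 in MEF-1 clones 1 to 7 and at 0.29, 0.28 and 0.26 in MEF-2 clones 2, 5 and 7, chromosome 18 was at 0.13 in MEF-2 clone 3 and chromosome 19 at −0.22 in MEF-2 clone 4. Differences near 0 that were not called changed sign. After subtraction, with genes within 10 Mb in place of the chromosome, these were Rpl36a (−0.022), Rplp0 (0.0072) and Rps29 (−0.00074), with the chromosome mean Rpl36a-ps1 (0.040), Rpl36al (0.011) and Rplp0 (0.075), and with the parental lines added Rplp2 (−0.012). With single lines left out, the ranges were −0.13 to 0.038 for Rpl36a-ps1, −0.040 to 0.013 for Rpl36al, −0.11 to 0.012 for Rplp0, −0.036 to 0.050 for Rplp2 and −0.018 to 0.036 for Rps29, and on the values themselves −0.19 to 0.012 for Rpl36a-ps1 and −0.0058 to 0.053 for Rps27rt. Of the other single-gene results, 498 kept direction and side of the threshold, 28 lost the call and 5 gained it under alternatives that kept all lines. With single lines left out, 738 kept both, 76 lost the call and 7 gained it. Shrinkage of the rlog values and unknown depth limit what can be said of members with low values.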
